A study of Mus musculus with 8 samples.

Results

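The liver clock drives a group of genes taken here as outputs of the phase of Dbp. In the livers of KK-Ay mice 10 of them were examined: Dbp, Tef, Hlf, Per1, Per2, Per3, Nr1d1, Nr1d2, Usp2 and Wee1. The time of their peaks was not measured, and not all of them followed Dbp over the livers. They were chosen by gene symbol, and every probe set (a group of short oligonucleotides on the array that together read 1 transcript) annotated with 1 of these symbols and no other was taken, which gave 24 probe sets for the 10 genes, of 45037 probe sets and 18193 named genes measured. KK-Ay mice are an obese model of type 2 diabetes. All mice were male, individually housed KK-Ay/TaJcl animals aged 14 weeks when sampled, and all ate AIN-93G, a purified rodent diet. For 8 weeks the control diet (CD) mice received it unchanged and the PP extract diet (PD) mice received it with 1 g of persimmon peel (PP) extract per kg. Each mouse was fasted for 3 h before sampling, and lights were on from hour 8 to hour 20. RNA from the livers of 4 CD and 4 PD mice was read, on 1 array for each mouse. These mice had been picked from larger groups because their plasma total ketone bodies were near their group's mean, so the 4 livers of a diet may vary less than the whole group. The hour of the day at which each liver was taken was not given in the sources used here, and its part in every result below was not tested.

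In the liver, the transcription factors BMAL1 (gene Arntl) and CLOCK bind E-box sequences and switch on their target genes during the day. Among these targets are the Period genes, whose proteins join the cryptochromes to inhibit BMAL1 and CLOCK, and the Rev-erb genes Nr1d1 and Nr1d2, whose proteins repress Arntl. Dbp, Tef and Hlf form the PAR bZIP family, which is induced in the same way and binds D-box sequences in genes of drug, heme and lipid metabolism, and Nfil3 is a repressor that competes for the same D-boxes. Dbp is therefore high near the time when Arntl, Clock, Npas2, Cry1 and Nfil3 are low, and a single sample taken at 1 hour of the day reads a point on these opposed cycles.

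Values are the authors' log2 expression indices, so a difference of 1 is a doubling, and a level is compared only with other levels of the same probe set. The arrays had medians of 7.09 to 7.16 and pairwise correlations of 0.991 to 0.996, and CD replicate 1, which recurs below, had correlations with the other arrays between 0.991 and 0.994. Marker levels are given for comparison between livers and not between cell types. The hepatocyte markers Alb, Apoa1, Ttr, Fgb and Cps1 had a mean level of 14.1 to 14.2 over the livers. The lymphocyte, cholangiocyte and adipocyte markers averaged 6.89 to 7.03, 6.88 to 6.94 and 6.20 to 6.32. Kupffer cell markers averaged 8.47 to 8.92 in CD and 8.68 to 8.79 in PD, stellate cell markers 8.39 to 8.78 and 8.69 to 8.75, endothelial markers 8.14 to 8.49 and 8.19 to 8.37, and neutrophil markers 7.38 to 7.86 and 7.36 to 7.57. The 3' to 5' log2 ratio of Actb, a measure of RNA integrity, was 1.14 to 1.19 over the 8 arrays and that of Gapdh 0.11 to 0.18. In whole liver, fewer cells of a type and less RNA per cell cannot be told apart.

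The start-site windows below are shown because the E-box and the D-box are the sequences through which these genes are known to be driven. Each window holds the 250 bases before an annotated transcription start in RefSeq (GRCm38.p6), written 5' to 3' on the strand of the gene. Windows were found for 8 of the 10 genes, 10 windows in all, and not for Per2 and Wee1. Capitals mark a match on either strand to CACGTG (E-box), CACGTT (E-box variant), TTATGTAA or TTACGTAA (D-box), and no matches overlapped. The Dbp window is shown for comparison and has no capitals.
Per3 (chr4:151044666-151044915, minus strand): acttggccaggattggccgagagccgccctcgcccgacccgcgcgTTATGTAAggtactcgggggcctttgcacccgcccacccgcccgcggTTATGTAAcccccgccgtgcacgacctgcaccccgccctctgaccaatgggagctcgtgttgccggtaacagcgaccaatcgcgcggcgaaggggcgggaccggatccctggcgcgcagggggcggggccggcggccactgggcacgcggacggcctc
Per1 (chr11:69098699-69098948, plus strand): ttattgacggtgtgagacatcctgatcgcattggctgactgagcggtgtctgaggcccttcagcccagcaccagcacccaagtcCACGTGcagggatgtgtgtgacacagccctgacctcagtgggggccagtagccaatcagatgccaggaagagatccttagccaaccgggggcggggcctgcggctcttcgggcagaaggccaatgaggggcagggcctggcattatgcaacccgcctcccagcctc
Nr1d1 (chr11:98775378-98775627, minus strand): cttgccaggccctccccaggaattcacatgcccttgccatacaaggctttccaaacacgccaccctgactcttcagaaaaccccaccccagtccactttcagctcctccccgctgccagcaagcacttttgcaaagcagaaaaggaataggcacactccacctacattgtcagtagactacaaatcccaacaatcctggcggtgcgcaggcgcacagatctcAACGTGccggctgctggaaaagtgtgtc
Tef (chr15:81802423-81802672, plus strand): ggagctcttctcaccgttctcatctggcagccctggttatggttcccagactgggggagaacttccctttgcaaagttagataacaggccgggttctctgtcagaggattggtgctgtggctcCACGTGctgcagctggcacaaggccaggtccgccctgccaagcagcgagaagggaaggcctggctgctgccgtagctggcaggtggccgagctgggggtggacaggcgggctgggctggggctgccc
Tef (chr15:81811164-81811413, plus strand): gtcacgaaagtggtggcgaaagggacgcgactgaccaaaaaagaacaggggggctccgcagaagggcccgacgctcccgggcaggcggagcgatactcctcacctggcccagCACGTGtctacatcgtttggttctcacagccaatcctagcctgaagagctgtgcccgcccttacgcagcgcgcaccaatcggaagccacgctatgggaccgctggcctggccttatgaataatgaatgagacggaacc
Dbp (chr7:45704997-45705246, plus strand): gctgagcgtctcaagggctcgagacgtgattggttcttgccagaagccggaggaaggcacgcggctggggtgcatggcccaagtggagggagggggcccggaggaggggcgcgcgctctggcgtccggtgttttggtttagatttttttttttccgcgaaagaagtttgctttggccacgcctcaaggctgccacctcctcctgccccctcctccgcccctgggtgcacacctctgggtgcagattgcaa
The Per3 window held TTATGTAA at 205 and at 158 bases before the start. Among 32851 mouse windows of the same length, 0.819% held TTATGTAA and 6 windows (0.0183%) held it 2 or more times. CACGTG stood 166 bases before 1 of the Per1 starts and 127 and 138 bases before the Tef starts, and 6.02% of all windows held it. The Nr1d1 window held CACGTT, read on the other strand as AACGTG, at 28 bases before the start, with 3.85% of all windows holding it. TTACGTAA (0.113% of all windows) was in no member's window. The windows of Dbp, Hlf, Nr1d2 and Usp2 and the other Per1 window held none of these letters, which says nothing about sites outside 250 bases.

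The diets were compared with the rank product, the test named in the study's methods, which ranks all probe sets by the PD/CD ratio for each of the 16 combinations of 1 PD with 1 CD array and calls those whose false discovery rate (FDR) is under 0.1. The 16 ratios share 8 arrays and are not independent. The ranks do not use a probe set's own spread between mice, so a called gene can still overlap between the diets. Limma, which sets each difference against that spread, was run beside the rank product. The median SD over the 8 mice was 0.21 for the 24 member probe sets and 0.08 for all probe sets. Of the 24 member probe sets, 7 were called higher in PD (0.215% of all probe sets were) and 0 lower (0.26% of all). The 7 belonged to 4 genes, with 2 probe sets each for Dbp, Per3 and Usp2 and 1 for Wee1. By limma 0 member probe sets passed an adjusted p of 0.1 (0% of all probe sets did), the adjusted p being 0.998 for each of the 24, and 4 had an unadjusted p under 0.05 in limma, all of them higher in PD (1.69% of all probe sets were). The PD mean was above the CD mean for 22 of the 24, with a median log2 difference of 0.17 against -0.0043 over all probe sets. The study itself selected several of these genes as changed on the same arrays by the same test, so the calls are not independent evidence of their direction.

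**Figure D1:**
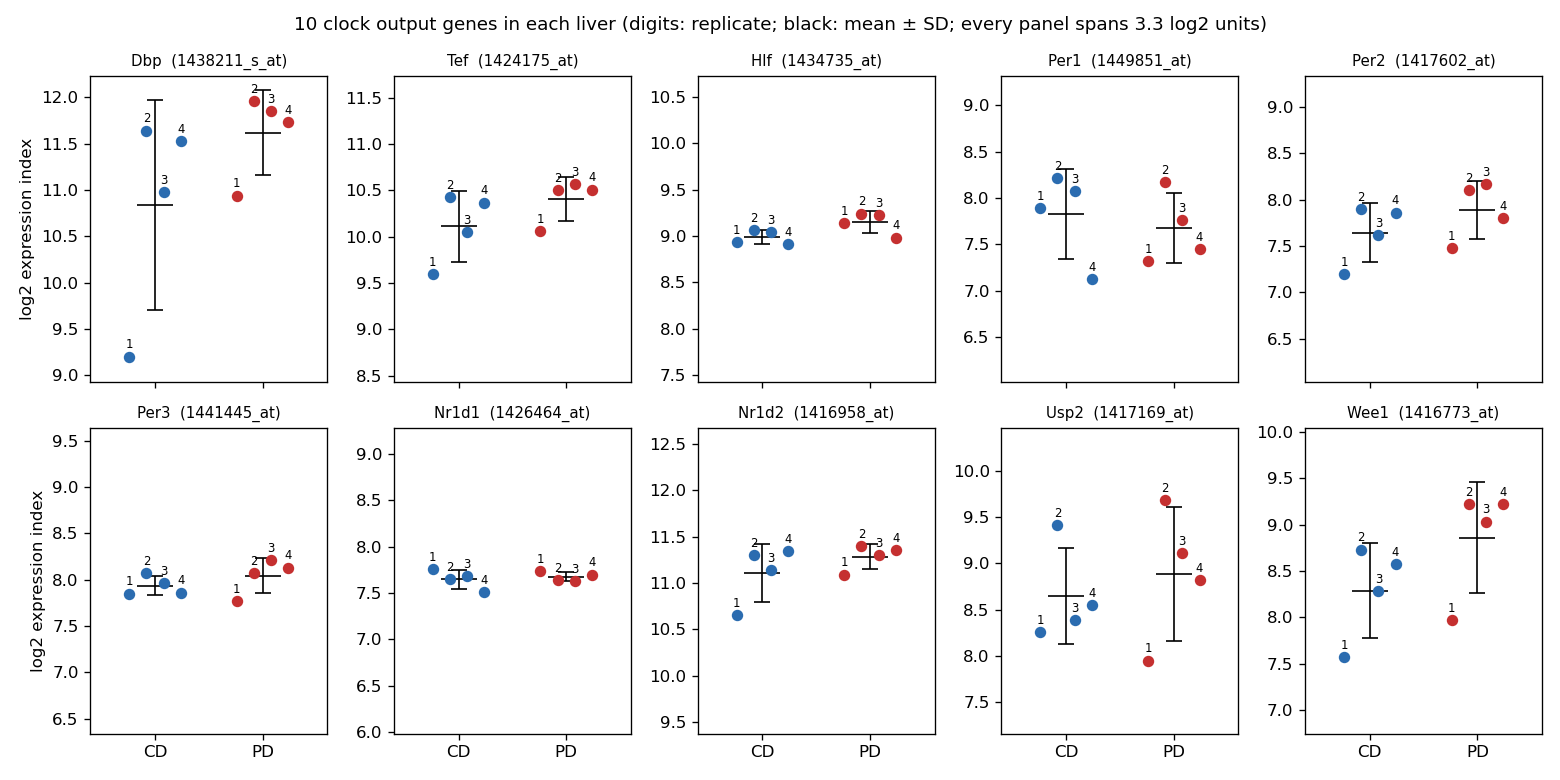
Log2 expression index (vertical axis, 3.3 log2 units in every panel) of the probe set with the highest mean of each of the 10 genes in the 4 CD (blue) and 4 PD (red) livers, with the replicate number above each point and the mean ± SD in black. CD replicate 1 and PD replicate 1 lie low for Dbp, Tef, Per2, Nr1d2 and Wee1, while Hlf, Per3 and Nr1d1 span under 0.5.

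Among the PAR bZIP factors, Dbp had the widest range. Its transcript read 9.20, 11.64, 10.98 and 11.53 in CD replicates 1 to 4 and 10.94, 11.96, 11.85 and 11.73 in PD replicates 1 to 4 (probe set 1438211_s_at). CD replicate 1 was far below the other mice, PD replicate 1 was close to CD replicate 3, and the other 3 PD livers were above every CD liver, so the diets overlapped. The means were 10.84 ± 1.13 and 11.62 ± 0.46 (SD, n = 4 each), a log2 difference of 0.78 ± 0.61 (SE) or 1.72-fold, called by the rank product (FDR 0.0027) and not by limma (adjusted p = 0.998). Between the lowest and the highest liver Dbp differed 6.75-fold, and only 0.0488% of all probe sets had an SD over the 8 mice at least as large as its 0.90. The ending _s_at marks a probe set that may detect more than 1 gene. The other Dbp probe set, 1418174_at, followed it with r = 0.99 over the 8 mice, with 7.97, 9.88, 9.35 and 9.79 in CD and 9.26, 10.11, 10.19 and 10.15 in PD, a difference of 0.68 ± 0.49 (SE, rank product FDR 0.0031). Without CD replicate 1 the differences were 0.24 and 0.26 and neither probe set was called.

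Tef, the thyrotroph embryonic factor, read 9.60, 10.43, 10.05 and 10.37 in CD and 10.06, 10.50, 10.57 and 10.51 in PD (1424175_at). Its order of livers was almost that of Dbp, with CD replicate 1 lowest and CD replicate 3 and PD replicate 1 level with each other. The difference of 0.30 ± 0.22 (SE) was not called (rank product FDR 0.16), but it was when CD replicate 2 (0.41, FDR 0.0419) or CD replicate 4 (0.39, FDR 0.0532) was left out. Leaving out CD replicate 1 brought it to 0.13. A dimmer Tef probe set, 1438033_at, with 7.85, 7.72, 7.62 and 7.44 in CD and 7.75, 8.04, 8.14 and 7.89 in PD, had the same difference of 0.30 with a smaller SE of 0.12, but CD replicate 1 was there the highest CD liver. It was not called (rank product FDR 0.11), although its unadjusted limma p was 0.0118. The rank product did call it when CD replicate 1 (0.37, FDR 0.0414), CD replicate 2 (0.32, FDR 0.092) or PD replicate 1 (0.37, FDR 0.0941) was left out, and with the replicate number as a block (FDR 0.0859). The remaining Tef probe set, 1450184_s_at, spanned only 6.79 to 6.95 over the 8 livers.

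Hlf, the hepatic leukemia factor, was the steadiest of the family. Its brighter probe set (1434735_at) read 8.93, 9.06, 9.04 and 8.91 in CD and 9.14, 9.24, 9.22 and 8.98 in PD, a difference of 0.16 ± 0.07 (SE). The diets overlapped through PD replicate 4, and the rank product did not call it (FDR 0.77). Its limma p was 0.0345 unadjusted and 0.998 adjusted, and the difference was 0.14 without CD replicate 1. The other Hlf probe set spanned 8.45 to 9.08, with a difference of 0.12 ± 0.13 (SE).

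Of the Period genes, Per2 and Per3 varied together over the 8 livers on their brightest probe sets (r = 0.76). Per1 followed them less (r = 0.15 with Per2 and 0.41 with Per3). Per1, the member of the family that also responds to glucocorticoids and other acute signals, read 7.89, 8.21, 8.07 and 7.12 in CD and 7.32, 8.17, 7.76 and 7.45 in PD. Here CD replicate 4 was lowest and CD replicate 1 lay in the middle, and the diets covered the same range. Per1 was the only gene of the 10 with a lower PD mean on its brightest probe set, by -0.15 ± 0.31 (SE), and was not called. This value rested on single mice, being -0.02 when CD replicate 2, -0.03 when PD replicate 1, -0.07 when CD replicate 3, -0.08 when PD replicate 4 and -0.38 when CD replicate 4 was left out, and -0.32, called lower by the rank product, when PD replicate 2 was.

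Per2, the repressor whose loss shortens or abolishes rhythms in mice, read 7.20, 7.90, 7.62 and 7.86 in CD and 7.48, 8.10, 8.17 and 7.80 in PD (1417602_at). The livers followed the order of Dbp, with CD replicate 1 lowest, PD replicate 1 next and PD replicates 2 and 3 highest. The difference was 0.24 ± 0.22 (SE) and was not called (rank product FDR 0.26). It became 0.09 when CD replicate 1, 0.15 when PD replicate 3 and 0.37 when PD replicate 1 was left out. On the other probe sets of Per2 it was 0.06 and 0.13.

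Per3, a Period gene that is dispensable for the core rhythm, was read by 6 probe sets that did not give the same picture. On the probe set with the highest mean, 1441445_at, it read 7.85, 8.07, 7.96 and 7.86 in CD and 7.77, 8.07, 8.21 and 8.13 in PD, a difference of 0.11 ± 0.11 (SE) that was not called. Both called probe sets gave larger differences. Probe set 1421087_at read 7.16, 7.98, 7.56 and 7.99 in CD and 7.56, 8.52, 8.26 and 8.18 in PD, with a difference of 0.46 ± 0.28 (SE, rank product FDR 0.0165), and 1458176_at read 6.74, 7.27, 7.15 and 7.05 in CD and 7.24, 7.55, 7.55 and 7.35 in PD, with a difference of 0.37 ± 0.14 (SE, rank product FDR 0.0411). CD replicate 1 was lowest on both, and only PD replicate 1 (with CD replicate 2) kept the diets from separating on 1458176_at. Both calls ended when CD replicate 1 was left out (differences 0.29 and 0.27), and likewise for PD replicate 2 (0.33 and 0.33), PD replicate 3 (0.42 and 0.33) and PD replicate 4 (0.44 and 0.40). Probe set 1442243_at was the only member probe set whose diets did not overlap (with PD higher this held for 1.06% of all probe sets, and with PD lower for 1.02% and 0 members), at 7.24, 7.27, 7.32 and 7.24 in CD and 7.40, 7.57, 7.52 and 7.45 in PD. Its difference of 0.22 ± 0.04 (SE) was not called by the rank product (FDR 0.39) or limma (adjusted p = 0.998, unadjusted 0.0011). The 2 remaining probe sets differed by 0.07 and -0.08, the latter being the other negative difference among the 24.

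The Rev-erb genes, nuclear receptors that bind heme, were not called. Nr1d1 (REV-ERBα) read 7.76, 7.65, 7.68 and 7.51 in CD and 7.74, 7.64, 7.63 and 7.70 in PD, with a difference of 0.03 ± 0.06 (SE). The whole range of Nr1d1 was 0.25, CD replicate 1 was its highest liver, and 53.5% of all probe sets varied at least as much. Nr1d2 (REV-ERBβ) read 10.65, 11.30, 11.14 and 11.34 in CD and 11.09, 11.40, 11.30 and 11.35 in PD (1416958_at). CD replicate 1 again lay far below the rest, with the other 7 livers within 11.09 to 11.40, and the difference of 0.18 ± 0.17 (SE) shrank to 0.03 without that mouse. The other Nr1d2 probe set spanned 6.56 to 6.74 with a difference of 0.02.

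Usp2, a deubiquitinating enzyme that is among the most strongly cycling liver outputs, read 8.26, 9.41, 8.39 and 8.55 in CD and 7.95, 9.68, 9.11 and 8.82 in PD (1417169_at). PD replicate 1 was the lowest liver of all and PD replicate 2 the highest, so that the PD group enclosed every CD value. The rank product called Usp2 on this probe set with a difference of 0.23 ± 0.44 (SE, FDR 0.0912) and on 1417168_a_at with 0.41 ± 0.51 (SE, FDR 0.0189), where the livers read 7.59, 9.07, 8.01 and 8.22 in CD and 7.57, 9.46, 8.95 and 8.56 in PD. In both cases the difference was smaller than its SE. With the replicate number as a block 1417169_at was not called (FDR 0.177). On 1417168_a_at, leaving out CD replicate 1 (0.20) or any of PD replicates 2 (0.14), 3 (0.31) and 4 (0.44) ended the call, whereas leaving out CD replicate 2 or PD replicate 1 gave 0.695 and 0.77. On 1417169_at the call ended when any of CD replicates 1 (0.10), 3 (0.15) and 4 (0.20) or of PD replicates 2 (-0.03), 3 (0.16) and 4 (0.26) was absent, and the difference became 0.49 in the absence of CD replicate 2 and 0.55 in that of PD replicate 1.

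Wee1, the kinase that holds back entry into mitosis and links the clock to the cell cycle in liver, read 7.57, 8.73, 8.28 and 8.57 in CD and 7.97, 9.22, 9.03 and 9.22 in PD (1416773_at). The other 3 PD livers were above every CD liver, while PD replicate 1 was below all CD livers but CD replicate 1. The means were 8.29 ± 0.51 and 8.86 ± 0.60 (SD, n = 4 each), a difference of 0.57 ± 0.39 (SE) or 1.49-fold (rank product FDR 0.0019, limma adjusted p = 0.998). Wee1 was called in all 8 runs that left out 1 mouse, with a difference of 0.34 when CD replicate 1 and 0.87 when PD replicate 1 was left out. A dimmer Wee1 probe set, 1416774_at, spanned 7.22 to 7.49 and had a difference of 0.02.

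**Figure D2:**
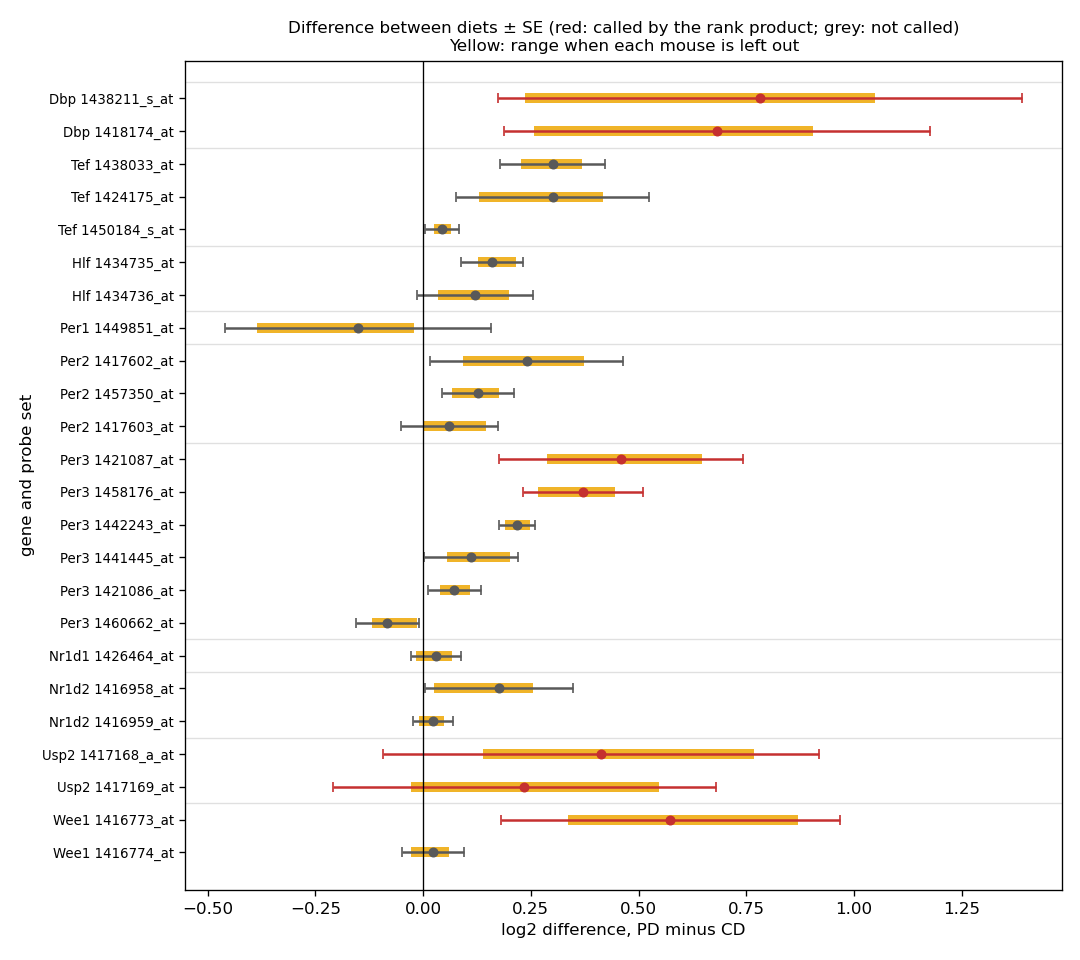
Log2 difference between PD and CD (horizontal axis, points ± SE from 4 mice a diet) for the 24 probe sets of the 10 genes, red where the rank product called it and grey where it did not, with the range over the 8 runs that left out 1 mouse in yellow. Of the 24 points 22 lie right of 0, and the range of Usp2 1417169_at reaches below 0.

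The members varied widely between livers. With 1 probe set a gene (the one with the highest mean), the 10 genes had a median range of 0.97 over the 8 livers, against 0.24 over all probe sets. The latter also covers dim and unnamed probe sets, and the median range of all genes with 1 probe set each was not computed. CD replicate 1 was the lowest liver for 5 of the 10 genes and among the lowest 3 for 8, and PD replicate 1 was among the lowest 3 for 8. CD replicate 3 was among the lowest 3 for 6 genes. PD replicate 2 was the highest liver for 4 genes and PD replicate 3 for 3. The low livers thus came from both diets.

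Whether the members varied together was read from their correlation with Dbp over the 8 mice. Of the other 9 genes 7 correlated positively with Dbp, with a median r of 0.65 against -0.03 over all probe sets. With exact permutation tests, 4 of the 9 had p under 0.05 (5.48% of all probe sets had), all with positive r (2.7% of all), and 0 had an adjusted p under 0.05, the lowest adjusted p over all 45036 probe sets being 0.279 (0% of them passed). Nr1d2 had r = 0.99 and rho = 0.83 (exact permutation p = 0.00154 and 0.0154, adjusted 0.478 and 0.752). Tef had r = 0.97 and rho = 0.90 (exact permutation p = 0.000397 and 0.00456, adjusted 0.345 and 0.599). Per2 had r = 0.92 and rho = 0.90 (exact permutation p = 0.000471 and 0.00456, adjusted 0.345 and 0.599), and Wee1 had r = 0.90 and rho = 0.93 (exact permutation p = 0.000198 and 0.00223, adjusted 0.319 and 0.538). These relations did not rest on the most extreme livers. Without the 2 livers farthest from the median of Dbp, CD replicate 1 and PD replicate 1, r was 0.89 for Nr1d2, 0.97 for Tef, 0.87 for Per2 and 0.90 for Wee1. Within diets, as deviations from the diet means, r was 0.99, 0.96, 0.90 and 0.87. Over all 8 livers the dimmer probe sets of these genes followed Dbp less, with r = 0.46 for Nr1d2, 0.17 and 0.13 for Tef, 0.90 and 0.35 for Per2 and 0.15 for Wee1. These values did depend on the 2 livers. Without them r was 0.21 for Nr1d2, 0.69 and 0.61 for Tef, 0.66 and 0.54 for Per2 and 0.50 for Wee1.

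The other members followed Dbp less closely. Usp2 had r = 0.65 but rho = 0.90 (exact permutation p = 0.0628 and 0.00456, adjusted 0.936 and 0.599), as it ranked the livers like Dbp without having its deep minimum in CD replicate 1, and r was 0.78 without the 2 extreme livers. Per3 had r = 0.63 and rho = 0.81 on its brightest probe set (exact permutation p = 0.0674 and 0.0218, adjusted 0.936 and 0.804), r = 0.59 without the 2 livers, and its other probe sets gave r = 0.91 (1421087_at), 0.87 (1458176_at), 0.57 (1442243_at), 0.08 (1460662_at) and -0.08 (1421086_at). Hlf had r = 0.49 and rho = 0.57 (exact permutation p = 0.214 and 0.151, adjusted 0.954 and 1), and 0.50 without the 2 livers. For Per1 r was -0.03 and rho 0.26 (exact permutation p = 0.958 and 0.536, adjusted 0.999 and 1), with r = -0.04 without the 2 livers. Nr1d1 had r = -0.60 and rho = -0.64 (exact permutation p = 0.139 and 0.0962, adjusted 0.937 and 0.969), with r = -0.07 without the 2 livers, -0.41 without CD replicate 1 alone and -0.80 as deviations from the diet means.

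Per log2 unit of Dbp, Tef differed by 0.36, Per2 by 0.33 and Nr1d2 by 0.27 log2 units on the probe set of highest mean. These slopes depended on the probe set, and read 0.60 and 0.02 on the 2 of Wee1, 0.43 and 0.60 on the 2 of Usp2 and 0.11, 0.45 and 0.26 on 1441445_at, 1421087_at and 1458176_at of Per3, so no order of the genes is given. Among Dbp, Tef, Per2, Nr1d2 and Wee1, a set chosen after their values were seen and given no test, the 10 pairwise r lay between 0.88 and 0.99, and between 0.80 and 0.98 without CD replicate 1. Over all 45 pairs of the 10 genes r ran from -0.67 to 0.99, and 35 were positive. The pairs with Per1 ran from -0.08 to 0.57, the highest being that with Usp2, and those with Nr1d1 from -0.67 to 0.22.

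**Figure D3:**
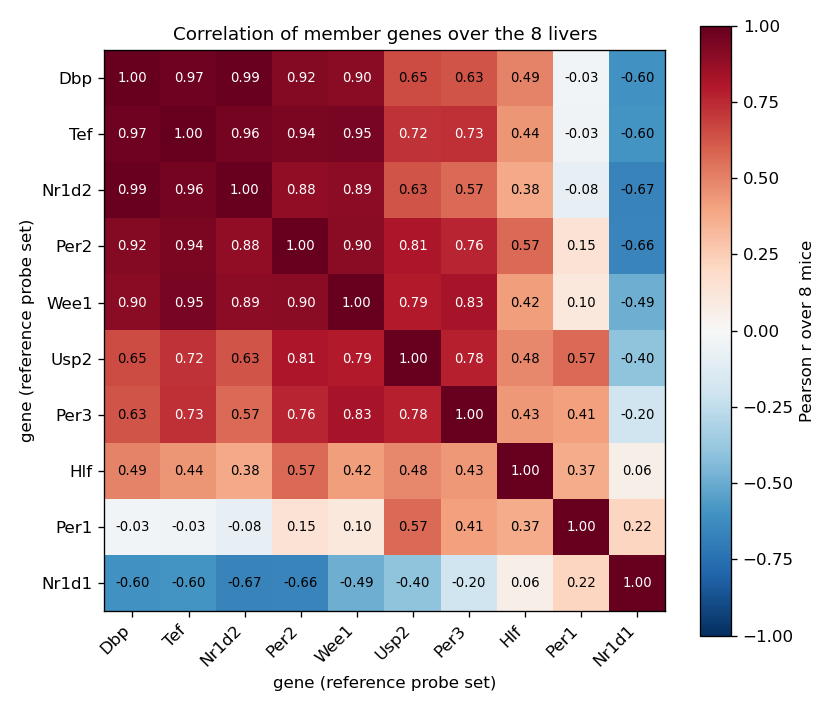
Pearson r over the 8 livers for every pair of the 10 genes, each on its probe set with the highest mean (red positive, blue negative, r printed in each cell). Dbp, Tef, Nr1d2, Per2 and Wee1 form a block of 0.88 to 0.99, and the Per1 and Nr1d1 rows are pale or blue against it.

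On their probe sets with the highest mean, the genes of the opposite phase ran against Dbp in the same livers. Nfil3, the D-box repressor, read 9.19, 8.32, 8.49 and 8.17 in CD and 8.53, 7.80, 7.98 and 7.93 in PD, with r = -0.96 and rho = -0.95 against Dbp (exact permutation p = 0.000273 and 0.00114, adjusted 0.341 and 0.459) and r = -0.89 without CD replicate 1 and PD replicate 1. Arntl read 7.95, 7.08, 7.36 and 7.19 in CD and 7.50, 6.74, 7.17 and 7.08 in PD, with r = -0.94 and rho = -0.93 (exact permutation p = 0.000422 and 0.00223, adjusted 0.345 and 0.538) and -0.80 without the 2 livers. Both were highest in CD replicate 1, where Dbp was lowest, and lowest in PD replicate 2, where Dbp was highest. Cry1, a cryptochrome that represses BMAL1 and CLOCK, had r = -0.88 and rho = -0.79 (exact permutation p = 0.00489 and 0.0279, adjusted 0.654 and 0.82), with -0.69 without the 2 livers. For Clock r was -0.77 and rho -0.98 (exact permutation p = 0.0161 and 0.000397, adjusted 0.838 and 0.372), with r = -0.91 without the 2 livers. Npas2, the close relative of Clock, had r = -0.87 and rho = -0.83 (exact permutation p = 0.00732 and 0.0154, adjusted 0.703 and 0.752), and -0.49 without the 2 livers. On these probe sets each of the 5 genes had a negative r at an unadjusted exact permutation p under 0.05, which 2.78% of all probe sets had. None passed after adjustment. The dimmer probe sets gave r = -0.34 for Arntl, 0.06 for Npas2 and -0.63, -0.64 and -0.68 for Clock. Without the 2 livers these were 0.09 for Arntl, 0.47 for Npas2 and -0.63, -0.71 and -0.78 for Clock. The dimmer probe sets of Arntl and Npas2 thus did not run against Dbp there.

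**Figure D4:**
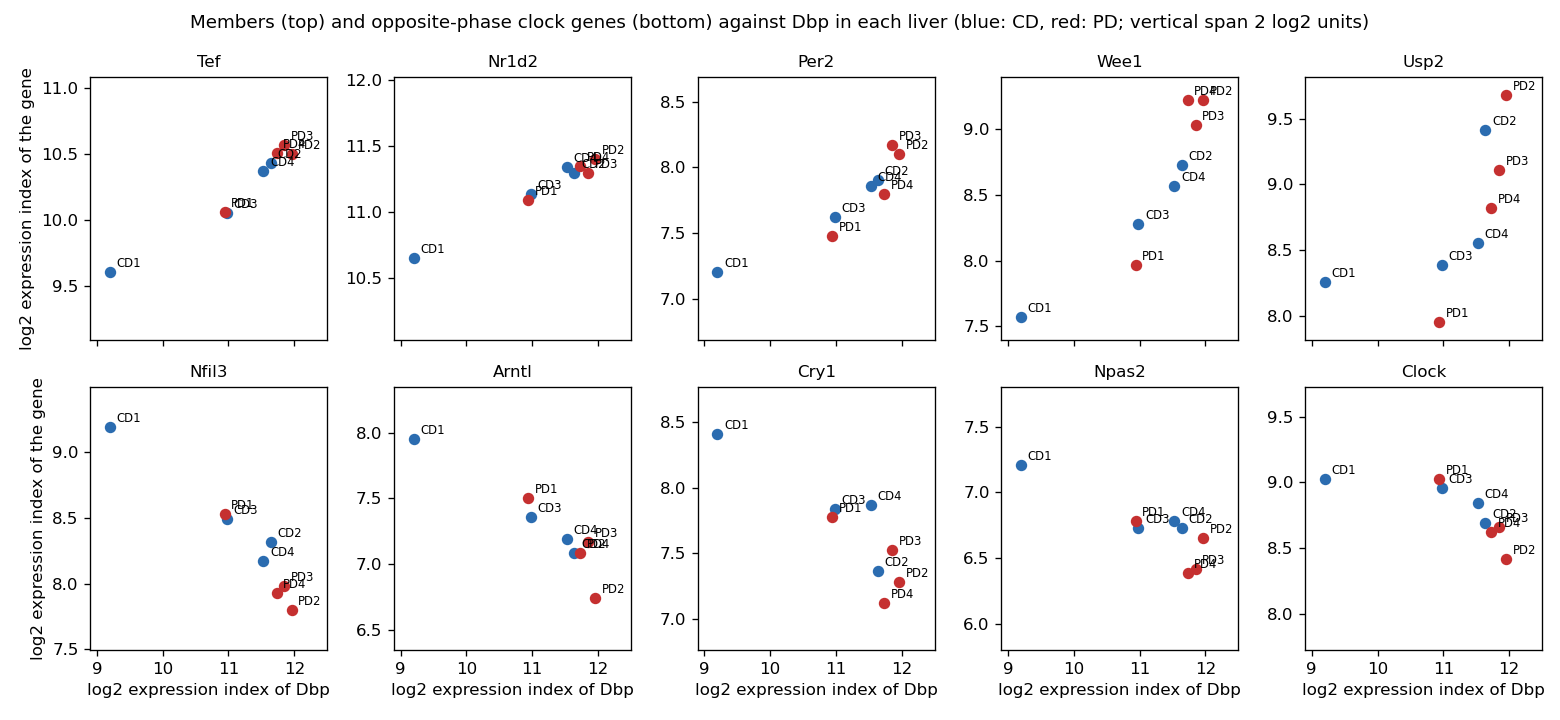
Log2 expression index of 5 members (top) and of 5 clock genes of the opposite phase (bottom) against that of Dbp in each liver (CD blue, PD red, 2 log2 units on each vertical axis). Each gene is on its probe set with the highest mean. CD replicate 1 is at the left end in all 10 panels, PD replicate 1 lies next to CD replicate 3, and r runs from 0.65 to 0.99 in the top row and from -0.96 to -0.77 in the bottom row.

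The 14 other clock genes analysed here had 35 probe sets. The rank product called 0 of them higher in PD (0.215% of all probe sets were) and 2 lower (0.26% of all). Nfil3 differed by -0.49 ± 0.28 (SE, rank product FDR 0.0204) and Cry1 by -0.45 ± 0.26 (SE, rank product FDR 0.0379), both on the only probe set of the gene and with overlapping diets. Cry1 read 8.41, 7.37, 7.84 and 7.87 in CD and 7.78, 7.28, 7.53 and 7.12 in PD, with the CD and PD livers interleaved. Limma had 0 adjusted p under 0.1 and 9 unadjusted p under 0.05 among the 35 (3.65% of all probe sets), 6 lower and 3 higher in PD. The diets did not overlap on 2 of the 35, 1 with PD higher (1.06% of all probe sets) and 1 with PD lower (1.02% of all). Clock read lower in all PD livers on 1 of its 4 probe sets, at 6.84, 6.73, 6.86 and 6.72 in CD and 6.71, 6.64, 6.59 and 6.48 in PD, a difference of -0.18 ± 0.06 (SE) that was not called. Cry2 read higher in all PD livers, at 8.14, 8.23, 8.32 and 8.35 in CD and 8.38, 8.60, 8.57 and 8.46 in PD, a difference of 0.24 ± 0.07 (SE) that the rank product did not call (FDR 0.28). Leaving out CD replicate 1 or CD replicate 3 brought the count of 2 to 0, leaving out CD replicate 4 or PD replicate 4 to 1, and leaving out PD replicate 1 to 5.

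Liver genes known as targets of the PAR bZIP factors were not called in a common direction. The 7 such genes analysed here had 10 probe sets. The rank product called 1 higher in PD (0.215% of all probe sets were) and 3 lower (0.26% of all). Limma had 0 of the 10 at an adjusted p under 0.1 and 0 at an unadjusted p under 0.05. Alas1, the first and rate-limiting enzyme of heme synthesis, was lower on both of its probe sets (rank product FDR 0.0624 and 0.0761), and read 11.10, 12.11, 10.71 and 11.20 in CD and 9.34, 11.74, 10.93 and 11.18 in PD on the brighter, where PD replicate 1 alone was low. Cyp2b10, a cytochrome P450 of drug metabolism, was called lower on 1 probe set, with a difference of -0.29 ± 0.28 (SE, rank product FDR 0.092). Its other probe sets differed by -0.25 (FDR 0.1024) and -0.24 (FDR 0.30) and were not called. Cyp2b9, a related P450, was called higher (rank product FDR 0.0285) and read 6.88, 7.98, 7.87 and 7.09 in CD and 7.54, 7.34, 7.30 and 9.69 in PD, so that PD replicate 4 alone was high. Across the mice Alas1 had r = 0.28 with Dbp on its brighter probe set and Cyp2b9 r = 0.37. Without CD replicate 1 these were 0.74 and 0.07, and without CD replicate 1 and PD replicate 1 0.50 and -0.03. As deviations from the diet means they were 0.51 and 0.27. The 4 calls came to 0 when CD replicate 1 was left out, to 1 when CD replicate 2 or CD replicate 4 was, and to 2 when PD replicate 1 was.

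Among 1030 genes whose SD over the 8 livers was at least 0.2, the 10 that are not members and most resembled Dbp, by r over the 8 livers, were F3 (tissue factor, the initiator of coagulation), Ngef, Mterf2, Clmn, Stk35, Fam102a, Tgfbr2 (a TGF-β receptor), Rnf145, Npc1 (a cholesterol transporter of lysosomes) and Pex26 (a peroxisome assembly factor), with r from 0.96 down to 0.88. F3 read 6.49, 7.04, 6.93 and 7.06 in CD and 7.03, 7.27, 7.31 and 7.24 in PD, with the lowest value in CD replicate 1 as for Dbp. The 10 most opposed were Nfil3, Arntl, Slc45a3, Lgalsl, Lrfn3, Pnrc1, Scd2 (a fatty acid desaturase), Crls1 (cardiolipin synthase), Mtnr1a (a melatonin receptor) and Eif1a, with r from -0.96 to -0.90. These lists held 2 of the other clock genes, both among the opposed. Since the genes were picked for this likeness, their r values are descriptions. For Stk35 and Scd2 it rested on 2 livers, with r = 0.34 and -0.23 without CD replicate 1 and PD replicate 1.

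The markers of other cell types and of RNA quality were set beside Dbp in the same way, as descriptions over the 8 mice. The r of the mean marker level with Dbp was -0.57 for hepatocytes, -0.44 for lymphocytes, 0.24 for Kupffer cells, 0.31 for stellate cells, 0.28 for endothelial cells, 0.30 for cholangiocytes, 0.34 for neutrophils and 0.48 for adipocytes, and their part in the variation of the members was not tested. Col3a1, a stellate cell collagen, was the only marker called between the diets, higher in PD, among the 35 measured on these lists. The 3' to 5' ratios of Actb and Gapdh had r = -0.17 and 0.16 with Dbp, and CD replicate 1 lay within the range of the other arrays for Actb (1.16) and Gapdh (0.12). Hepatocyte markers in CD replicate 1 (14.2) were the highest of the 8 livers, against 14.1 in the lowest.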

How the data were processed

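Liver RNA of 8 KK-Ay mice was hybridised to Affymetrix GeneChip mouse whole-genome arrays. The deposited values are log2 model-based expression indices that the authors computed from the scanned probes with Bioconductor, in R 2.7.2 per the submitters' processing notes. How the authors scaled arrays to each other was not given in the sources used here, and the values were analysed as deposited. Arrays have no read depth, and their number limits the precision. Nothing ties a replicate number to a shared litter, batch or day.

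Of all probe sets, 64 controls were dropped and 45037 kept. A probe set was named only where the platform annotation gave it 1 symbol. For each gene the probe set with the highest mean over the 8 arrays, taken blind to diet, stood for the gene in correlations and ranks. The members, the lists of other clock genes, D-box targets and cell type markers, and the tests were chosen with earlier results of these data known, and no list was tested as a set. Genes named are all members, the list genes called by the rank product, Arntl, Clock, Npas2, Cry1 and Nfil3, and the 10 genes each most like and most opposed to Dbp. Cry2 was added after its values were seen.

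The rank product (1000 permutations, FDR under 0.1, in each direction) and the correlations were computed in Python 3.11.15 (numpy 2.4.6, pandas 2.3.3, scipy 1.17.1), and limma 3.58.1 was run in R 4.3.3 across all probe sets with Benjamini-Hochberg adjustment. Estimated FDR values near 1 can exceed 1. Correlations with Dbp were tested two-sided by all 40320 orderings of the mice and adjusted over 45036 probe sets. Mice left out were dropped from the fit. Alternatives were an FDR of 0.05, quantile normalization, centring on array medians, 16 added before the log2, removal of dim probe sets, the replicate number as a block, limma with trend and robust variances, the methods' t-test, and each mouse left out. The correlation without CD replicate 1 was added after seeing the data. The code was tested on simulated data. Promoter windows came from RefSeq (GRCm38.p6).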

Additional observations from a re-analysis of the deposited data

Results flagged for a closer look

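Within a diet, 1 liver stood far from the other 3 on 4 of the 48 sets of 4 values examined, and chance alone would mark about 1 in 20 such sets. PD replicate 1 was low for Dbp on 1418174_at at 9.26, where the next PD liver read 10.11 and the gap was 0.919 of the range of the PD group. It was low for Tef on 1424175_at at 10.06, with the next at 10.50 and a gap of 0.868 of the range. It was also low for Wee1 on 1416773_at at 7.97, with the next at 9.03 and a gap of 0.847. These 3 genes correlated with each other over the 8 livers, so the 3 marks are not independent. CD replicate 1 was high for Per3 on 1421086_at at 6.87, the next CD liver being at 6.74 with a gap of 0.871. That probe set spanned 0.22 over all livers. CD replicate 1, the lowest liver for Dbp on 1438211_s_at at 9.20, was not marked there because the other 3 CD livers spread from 10.98 to 11.64.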

How the results depend on the processing

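With 4 mice a diet, single mice decided most calls. The 7 member probe sets called higher became 2 to 9 when each mouse was left out, with 2 in the absence of CD replicate 1 and 3 in that of PD replicate 2, 3 or 4, and stayed at 6 or 7 under an FDR of 0.05, quantile normalization, centring, 16 added before the log2 and removal of dim probe sets. Member probe sets called lower ran from 0 to 1, with 1 (Per1) in the absence of PD replicate 2. The other clock genes called ran from 0 to 5 and the D-box targets from 0 to 5, and the latter came to 1 at an FDR of 0.05 and 2 after removal of dim probe sets. Limma called 0 members under each alternative run, and the methods' t-test gave 3 unadjusted and 0 after Benjamini-Hochberg adjustment. The number of the 9 genes correlated with Dbp at an unadjusted exact permutation p under 0.05 was 4 to 6, with 5 without CD replicate 1. Leaving out 1 mouse turned the sign of 5 small differences, which ran from -0.000835 to 0.15 for Per2 on 1417603_at, -0.0163 to 0.0675 for Nr1d1, -0.00942 to 0.0487 for Nr1d2 on 1416959_at, -0.0288 to 0.55 for Usp2 on 1417169_at and -0.0277 to 0.0607 for Wee1 on 1416774_at (-0.0101 without CD replicate 3). Of 318 values under the alternatives, 284 counted as unchanged, 21 lost the call with the sign kept, 7 gained a call and 6 changed sign. Unchanged values kept direction and call. Means over all probe sets of a gene have no call, and counted as unchanged when within 1 SD of the main value. Among the sign changes, Usp2 1417169_at without PD replicate 2 lost its call as well. The cause was not tested. Over all probe sets, same-numbered CD and PD mice did not deviate together (r of -0.06 to 0). That r cannot show whether the replicate numbers pair the mice for the members. CD replicate 1 and PD replicate 1 were the 2 lowest livers for Dbp, Per2, Nr1d2 and Wee1. With the number as a block the rank product called 7 member probe sets higher and 0 lower. Tef 1438033_at was gained (FDR 0.0859) and Usp2 1417169_at lost (FDR 0.177). Limma called 0 with the block, and its lowest adjusted p over all probe sets became 0.102. Its unadjusted p fell from 0.0816 to 3.89e-05 for Wee1 1416773_at and from 0.0067 to 0.000203 for Per3 1458176_at. For Per3 1442243_at it rose from 0.0011 to 0.0025 and for Tef 1438033_at from 0.0118 to 0.0169. With the block the unadjusted limma p was under 0.05 on 1 or more probe sets of Dbp, Tef, Hlf, Per2, Per3, Nr1d2, Usp2 and Wee1. It was 0.277 for Per1 and 0.61 for Nr1d1. Without the block 4 member probe sets were under 0.05. Over all probe sets 1708 were under 0.05 with the block and 1642 without it. The reason was not tested.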
